A study of Homo sapiens with 15 samples.

Results

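The 56 genes described here are core interferon-stimulated genes and regulators of the interferon response, given as a fixed list that leaves out several gene clusters of the same kind. All 56 were found by symbol among 20037 RefSeq protein-coding genes. MPP8, a chromodomain protein that binds methylated lysine 9 of histone H3, was mapped by ChIP-seq in K-562, an established leukaemia cell line that the labels call Human Lymphoblast. The files used were the MPP8 peak lists of 1 library with genotype TASOR KO and 1 library with genotype TASOR2 KO. Both lines were CRISPR/Cas9 knockout clones grown from single sorted cells, so each genotype is a clone and not a population. The labels name no interferon treatment for either sample, and they describe empty puromycin vectors or FLAG transgenes as delivered by lentivirus without saying whether these 2 samples carried an empty vector. The other 13 samples of the series, an input, unedited cells and MPP8 KO cells among them, were not used here. Whether signal at these genes depends on MPP8 itself was therefore not tested.

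Many interferons act through cell surface receptors whose kinases JAK1 and TYK2 activate STAT proteins. STAT2 and IRF9 are parts of a complex that binds the interferon-stimulated response element (ISRE), a pair of GAAA half-sites in the promoters of many antiviral genes, while IRF proteins bind the ISRE as well and other STAT complexes bind the gamma-activated site (GAS). MPP8 acts in the human silencing hub (HUSH), which is built on TASOR and represses LINE-1 elements and other foreign or repeated DNA. MPP8 also acts with TASOR2, a paralog of TASOR.

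MPP8 peaks were found at 9 of the 56 genes in TASOR KO and at 0 in TASOR2 KO. The largest q was 0.460 in the TASOR KO list and 0.258 in the TASOR2 KO list. At a common q threshold of 0.258 the TASOR KO count was 7, and the share over protein-coding genes was not counted at that threshold. The 9 genes were NMI, TMEM140, IRF2, PARP14, PARP12, RSAD2, ZC3HAV1, EIF2AK2 and MX1, each with 1 peak. A gene was counted when a deposited peak overlapped it or the 1 kb beyond either end by 1 bp or more. The TASOR KO list has no peak on chromosomes 1 and 13, where 9 genes lie (ADAR, EPSTI1, GBP1, GBP2, IFI16, IFI44, IFI44L, IFI6 and ISG15), so the count is 9 of 47 genes that could be met (19.1%, exact binomial 95% interval 9.15 to 33.3). Over all protein-coding genes of those chromosomes the share was 1.28% (225 of 17574). The listed genes were chosen with earlier results of these data known, so the 19.1% describes the list and is not an independent estimate. For TASOR2 KO the 5 genes on chromosomes without a peak were IFI27, IRF9, ISG20, PML and USP18, which leaves 0 of 51 (upper bound 6.98%) against 1.03% of protein-coding genes (179 of 17453). The background lies under that bound, so the 0 in TASOR2 KO does not set these genes apart. With 1 library per genotype there is no replicate error and no p-value. Intervals cover counting error only.

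The TASOR KO list held 427 peaks with an authors' fold enrichment of 2.49 to 6.57, and the TASOR2 KO list held 264 with 2.61 to 6.01. Of these peaks, 32.3% and 29.9% had a q no higher than 0.05. Depth is unknown, as the lists give no read totals. Both lists are numbered with gaps and hence are parts of longer ones, so a gene without a peak is a gene without a deposited peak.

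The promoters of the genes with a peak are shown first, because most of the peaks lay over them. A RefSeq promoter table (GRCh38.p14) lists starts for 43 of the 56 genes and for 8 of the 9, all but IRF2. In 6 of the 8 the TASOR KO peak covered a listed start, and the sequence around each of those 6 starts is printed. That of ZC3HAV1, whose peak stopped short of the start, is printed too. MX1, the other gene with a listed start beside its peak and not under it, is not printed, because its ISRE-like match lies inside the transcribed part, at +12 to +21 and outside the peak. Each runs 5′ to 3′ on the strand of the gene from -170 to +4, where +1 is the first transcribed base and -1 the base before it. Capitals mark ISRE-like matches (GAAA, any 2 bases, GAAA, on either strand) and, in ZC3HAV1, a GAS-like match (TTC, any 3 bases, GAA). PARP14 also has a GAS-like match in its stretch, at -40 to -32, which is left in lower case.
NMI (chr2:151289665-151289838, minus strand): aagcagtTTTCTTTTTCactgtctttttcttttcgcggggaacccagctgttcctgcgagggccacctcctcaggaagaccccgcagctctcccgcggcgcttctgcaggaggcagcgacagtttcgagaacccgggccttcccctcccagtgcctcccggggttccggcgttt
TMEM140 (chr7:135147902-135148075, plus strand): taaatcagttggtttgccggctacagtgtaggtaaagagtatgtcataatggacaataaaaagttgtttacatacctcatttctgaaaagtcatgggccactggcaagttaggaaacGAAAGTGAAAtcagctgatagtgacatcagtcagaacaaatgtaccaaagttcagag
PARP14 (chr3:122680669-122680842, plus strand): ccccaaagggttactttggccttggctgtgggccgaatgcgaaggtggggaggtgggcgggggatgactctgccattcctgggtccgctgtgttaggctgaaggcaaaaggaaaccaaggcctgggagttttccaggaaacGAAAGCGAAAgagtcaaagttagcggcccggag
PARP12 (chr7:140062948-140063121, minus strand): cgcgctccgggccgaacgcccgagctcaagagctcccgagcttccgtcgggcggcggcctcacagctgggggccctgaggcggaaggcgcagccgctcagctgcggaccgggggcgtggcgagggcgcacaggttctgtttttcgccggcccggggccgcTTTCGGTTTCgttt
RSAD2 (chr2:6877607-6877780, plus strand): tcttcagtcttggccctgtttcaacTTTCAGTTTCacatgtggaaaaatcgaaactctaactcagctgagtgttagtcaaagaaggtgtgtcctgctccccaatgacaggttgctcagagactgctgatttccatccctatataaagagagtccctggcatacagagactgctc
EIF2AK2 (chr2:37156977-37157150, minus strand): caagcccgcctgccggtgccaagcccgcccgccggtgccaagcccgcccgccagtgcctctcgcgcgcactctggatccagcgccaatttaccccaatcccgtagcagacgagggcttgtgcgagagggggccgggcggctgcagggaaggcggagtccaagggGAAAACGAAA
ZC3HAV1 (chr7:139109717-139109890, minus strand): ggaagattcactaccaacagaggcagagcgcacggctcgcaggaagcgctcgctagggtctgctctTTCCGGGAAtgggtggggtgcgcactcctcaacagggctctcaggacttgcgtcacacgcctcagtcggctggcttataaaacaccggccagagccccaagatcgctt

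Every one of the 6 covered starts had an ISRE-like match in this stretch, and each match lay inside the peak. In EIF2AK2 it ran from -6 to +4, across the start itself. In PARP12 it ended at -1, in PARP14 it ran from -29 to -20, and in TMEM140 from -53 to -44. The matches of RSAD2 (-145 to -136) and NMI (-163 to -154) lay farther upstream, and these and that of PARP12 read GAAA on the strand opposite to the gene. A match is a run of letters and not a measured binding site. The printed stretch ends with the match of EIF2AK2 at +4 and leaves out that of MX1 (+12 to +21), whose start was not under a peak. The stretch therefore cannot show whether matches go with covered starts. Counts over longer promoter windows are given below.

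**Figure D1:**
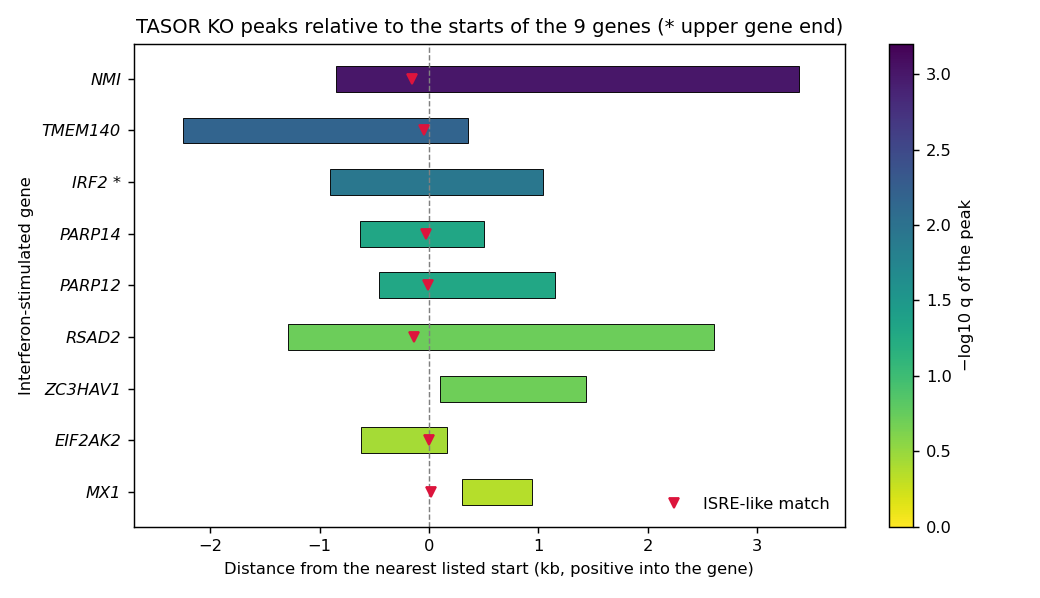
TASOR KO peaks at the 9 genes, drawn as bars against the distance in kb from the nearest listed start (positive into the gene) and coloured by −log10 q, with ISRE-like matches as triangles. Bars of 6 genes cross 0 with the triangle inside the bar, the bars of ZC3HAV1 and MX1 begin 99 and 304 bp inside the gene, and IRF2 is drawn from its upper gene end because the table lists no start for it.

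Among the 7 transcription factors and their partners, 2 had a TASOR KO peak. NMI encodes a partner of STAT proteins that is itself induced by interferon. Its peak was the strongest of the 9, with a fold of 4.54 and a −log10 q of 3.01 (rank 51 of 427). The peak lay at chr2:151286287-151290515 (hg38), reached 847 bp upstream of the start and 3381 bp into the gene (gene ID 9111, chr2:151270470-151289668), and with 4229 bp was the widest of the 9. A further peak lay 8421 bp beyond the other end of NMI, over the upper (higher-coordinate) end of the neighbouring gene RBM43 (fold 4.08, −log10 q 1.78, rank 102).

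IRF2 encodes a factor that binds ISRE sequences and is best known as a repressor that competes with IRF1. Its peak at chr4:184473506-184475451 had a fold of 3.93 and a −log10 q of 1.93 (rank 91). It covered the upper end of the gene (gene ID 3660, chr4:184387729-184474550), from 1044 bp inside to 901 bp outside, and with it the lower end of IRF2-DT, a noncoding gene that begins at 184474802. STAT2 and IRF9, subunits of the complex that binds the ISRE, had no peak in either list, nor had IRF1, IRF7 and IFI35. The nearest TASOR KO peak to STAT2 was 1604 kb away.

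Among the 10 nucleic acid sensors and RNA-binding effectors, of which 8 could be met, 2 had a TASOR KO peak. ZC3HAV1 encodes ZAP, which binds CpG-rich viral RNA. Its peak at chr7:139108281-139109621 had a fold of 3.10 and a −log10 q of 0.701 (rank 233), and ended 99 bp inside the start (gene ID 56829, chr7:139043515-139109720). A second peak lay outside the counted window, 1907 bp upstream of ZC3HAV1, in no annotated gene. At chr7:139111627-139112709, with a fold of 4.56 and a −log10 q of 4.0 (rank 29), it was stronger than any peak counted at the 9 genes. The start of ZC3HAV1 thus lay between a weak and a strong peak and under neither.

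EIF2AK2 encodes PKR, the kinase that halts translation on sensing double-stranded RNA. Its peak at chr2:37156817-37157600 was 784 bp wide and lay 620 bp upstream to 163 bp downstream of the start (gene ID 5610, chr2:37099210-37156980). It was weak, with a fold of 2.83 and a −log10 q of 0.427 (rank 346). OAS1, OAS2 and OAS3, which make the activator of RNase L, their relative OASL and the RNA sensors IFIH1 and DHX58 had no peak in either list. Their distances to the nearest TASOR KO peak ran from 5225 kb (IFIH1) to 10593 kb (OAS2).

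Among the 15 other antiviral effectors, of which 13 could be met, RSAD2 and MX1 had a TASOR KO peak. RSAD2 encodes viperin, an enzyme that makes a chain-terminating nucleotide. It has 2 listed starts, and the peak at chr2:6876492-6880380 (fold 3.33, −log10 q 0.722, rank 229) covered the inner one at 6877777, 11892 bp downstream of the gene's outer start (gene ID 91543, chr2:6865885-6898239). The covered window held the ISRE-like match printed above, and the window of the outer start held none. The outer start lies beside the starts of CMPK2, a nucleotide kinase gene that points the other way, and none of the 3 listed starts of CMPK2 was under a peak. A further peak of fold 4.38 (−log10 q 2.62, rank 64) at chr2:6830028-6836555 lay 3998 bp beyond the other end of CMPK2, inside NRIR, a noncoding gene named as a negative regulator of the interferon response. The CMPK2 and RSAD2 locus thus held a peak on each side of the shared start region and none over it.

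MX1 encodes an antiviral GTPase. Its peak at chr21:41420862-41421500 had a fold of 2.83 and a −log10 q of 0.362, rank 424 of 427, which makes it one of the weakest in the list. It began 304 bp inside the first of 3 listed starts (gene ID 4599, chr21:41420558-41459214). The window of that start had an ISRE-like match at +12 to +21, 284 bp before the peak. MX2, the neighbouring paralog, had no peak of its own, and the MX1 peak was 11.5 kb away from it. The IFITM genes (IFITM1, IFITM2 and IFITM3), which block entry of enveloped viruses, and BST2, which tethers budding virions, had no peak in either list.

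Of the 5 PARP family genes with DTX3L, PARP14 and PARP12 had a TASOR KO peak. Both encode mono-ADP-ribosyltransferases induced by interferon. The PARP14 peak at chr3:122680210-122681341 had a fold of 3.8 and a −log10 q of 1.31 (rank 137), and spanned 629 bp upstream to 502 bp downstream of the start (gene ID 54625, chr3:122680839-122730840). The PARP12 peak at chr7:140061797-140063404 had a fold of 3.11 and a −log10 q of 1.29 (rank 140), and spanned 453 bp upstream to 1154 bp downstream (gene ID 64761, chr7:140023749-140062951). The q of 0.0485 at PARP14 and of 0.0514 at PARP12 fall on opposite sides of 0.05 and hardly differ. PARP9 and DTX3L, partners that share a start region, had no peak, and the one at PARP14 was 115 and 105 kb away.

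Among 10 other induced genes, of which 6 could be met, TMEM140 had a TASOR KO peak. TMEM140 encodes a membrane protein. The peak at chr7:135145821-135148426 had a fold of 3.82 and a −log10 q of 2.18 (rank 80), the second highest of the 9. It lay mostly upstream, from 2251 bp before to 354 bp after the start (gene ID 55281, chr7:135148072-135166215), and the whole of it was also inside CYREN, whose gene body contains TMEM140. The 2 listed starts of CYREN were not under a peak. CXCL10, a chemokine gene, had no peak in either list, nor had XAF1, LGALS3BP and HELZ2.

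None of the 9 genes of the ISG15 system, the TRIM family and PML had a peak in either list (8 could be met in TASOR KO and 7 in TASOR2 KO). ISG15 is a ubiquitin-like modifier, UBE2L6 its conjugating enzyme and USP18 its protease, while TRIM5, TRIM14, TRIM21, TRIM22 and TRIM25 belong to a family of mostly E3 ligases with antiviral roles. The nearest TASOR KO peak to TRIM22 and TRIM5 was 107 and 133 kb away, the same peak for both. The roles other than this one each had at least 1 gene with a TASOR KO peak, and with 5 to 15 genes a role the counts of 0 to 2 do not separate one role from another.

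The peaks at the 9 genes were of ordinary strength for their list. Their fold ran from 2.83 to 4.54 with a median of 3.33, against a median of 3.35 over the other 418 peaks. The median −log10 q was 1.29 against 0.796, and the median width was 1608 bp against 1933 bp. At NMI, TMEM140, IRF2 and PARP14 the q was 0.05 or less, so 4 of 47 genes had such a peak, against 0.586% of protein-coding genes (103 of 17574). RSAD2, ZC3HAV1, EIF2AK2 and MX1 had a q from 0.189 to 0.434. The 9 genes lay on 5 chromosomes in 9 loci when genes within 500 kb were joined, with the closest pair, ZC3HAV1 and PARP12, 0.914 Mb apart, so no peak was counted for more than 1 of them.

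**Figure D2:**
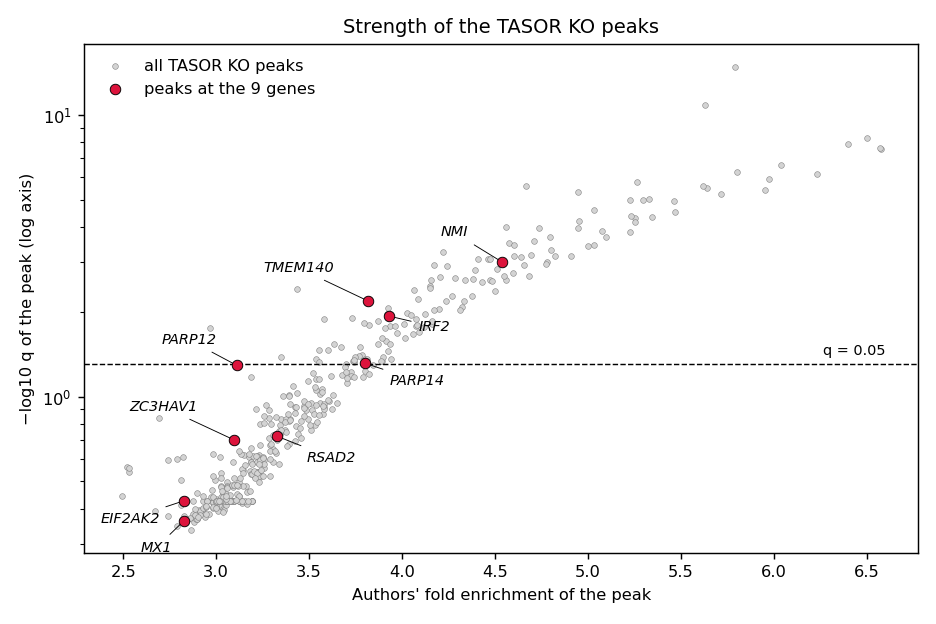
Authors' fold enrichment (x axis) against −log10 q (y axis, log scale) for the 427 TASOR KO peaks, with the peaks at the 9 genes in red and a dashed line at q = 0.05. The red points spread from rank 51 (NMI) to rank 424 (MX1), with 4 above the line and PARP12 just under it.

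Genes without a peak were mostly far from one. Of the 38 genes without a TASOR KO peak on chromosomes that have one, 3 (CMPK2, MX2 and LAMP3) had a peak within 100 kb (7.89%), against 2.80% of protein-coding genes without a peak (486 of 17349). For CMPK2 this was the NRIR peak, for MX2 the one in MX1, and for LAMP3, a lysosomal membrane protein gene, a peak in MCF2L2 at 37.1 kb. The median distance of the 38 was 5.51 Mb, against 4.37 Mb over protein-coding genes. In TASOR2 KO 1 of 51 genes had a peak within 100 kb (1.96%, against 2.71% or 468 of 17274). It was EIF2AK2, 48.4 kb from a weak peak inside CEBPZ and CEBPZOS (fold 3.91, −log10 q 0.959, rank 157 of 264). XAF1, a gene linked to apoptosis, followed at 104 kb. EIF2AK2 was the one gene of the 56 with a peak of both lists within 100 kb, and those peaks were 47.7 kb apart.

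**Figure D3:**
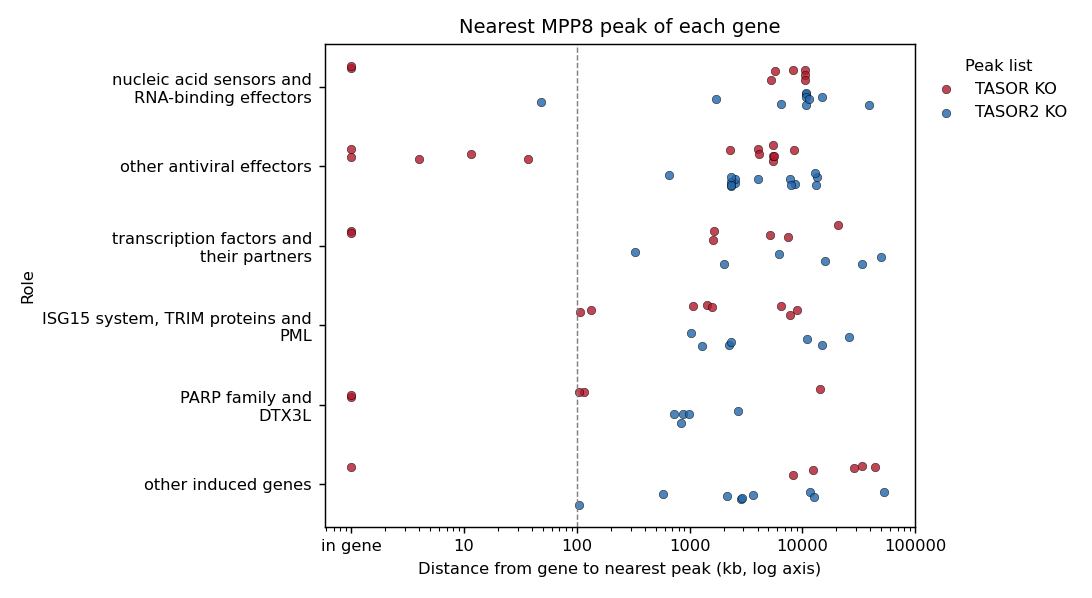
Distance from each gene to the nearest TASOR KO (red) or TASOR2 KO (blue) peak in kb on a log axis, by role, with genes that hold a peak placed at "in gene" and a dashed line at 100 kb. The 9 genes with a TASOR KO peak stand apart at the left, and most other genes lie far to the right of the dashed line in both lists.

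The peaks lay over or close to a listed start, at most 304 bp from it, in all 8 genes for which one is listed. Of the 8 genes with a TASOR KO peak and a listed start, 6 had a start under it (75%, 34.9 to 96.8). For the other protein-coding genes with a TASOR KO peak and a listed start the share was 93 of 184 (50.5%, 43.1 to 58.0), and the intervals overlap. Counted over all genes with a listed start, 6 of 35 genes described here had one under a TASOR KO peak (17.1%, 6.56 to 33.6), against 0.719% of protein-coding genes (99 of 13766). With peaks of q 0.05 or less, the 6 became 3. In TASOR2 KO the count was 0 of 40, against 0.00728% (1 of 13728): that list covered a single listed start of a protein-coding gene, although 160 such genes had a peak in or near them. The lack of TASOR2 KO peaks over the starts of interferon-stimulated genes was thus shared with nearly every gene.

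The genes with a peak were longer than those without, with a median of 39.2 kb (18.1 to 86.8) against 20.5 kb for the 38 without (1.19 to 96.4) and 24.1 kb for all protein-coding genes. The part of gene length in which genes had a peak was not tested. Base composition at the covered starts was mixed. The ratio of observed to expected CpG in the 300-base promoter window ran from 0.229 at RSAD2 and 0.372 at TMEM140 to 0.921 at PARP12, with a median of 0.710 over the 6 windows, against 0.549 over 40 windows of these genes not under a peak and 0.737 over all protein-coding windows. CpG-poor and CpG-rich promoters were thus both among the covered ones.

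ISRE-like matches were frequent in the promoters of these genes whether or not a peak lay there. In the 300-base window (250 bases before the start and 50 from it on), 6 of 6 covered starts had a match (100%, 54.1 to 100), against 20 of 40 starts not under a peak on the same chromosomes (50%, 33.8 to 66.2) and 3.17% of protein-coding windows (703 of 22199). Over every window of the table the share was 3.57%. The 40 windows belong to 30 genes and RSAD2 has a window in each group, so the windows are not independent. Counted by gene, 7 of 8 genes with a TASOR KO peak had a match, against 16 of 27 without one on the same chromosomes. The difference between covered and other starts was not tested and cannot be read from 6 windows. The match is a known feature of interferon-stimulated genes, which were chosen for that function. The promoters of other antiviral and antigen presentation genes under a TASOR KO peak had a match in 13 of 22 windows (59.1%, 36.4 to 79.3). Starts of ZNF genes under a TASOR KO peak had one in 1 of 40 windows (2.50%, 0.0633 to 13.2), a share near that of all promoters.

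**Figure D4:**
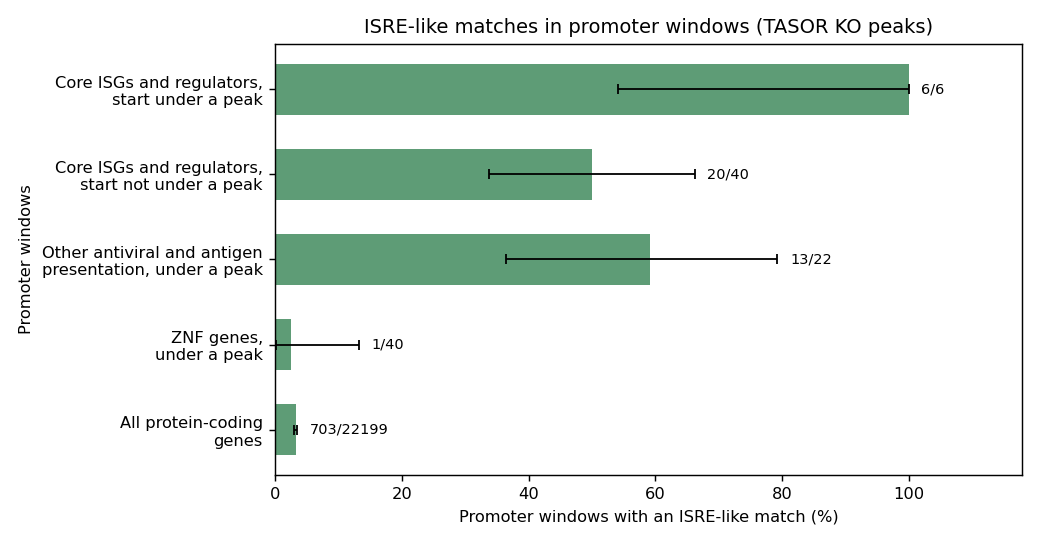
Share of promoter windows with an ISRE-like match (x axis, percent), by group of windows, with exact binomial 95% intervals and counts beside the bars. All 6 windows of core genes under a TASOR KO peak hold a match, 20 of 40 of those not under a peak do, and ZNF windows under a peak (1 of 40) lie near the 3.17% of all protein-coding windows.

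GAS-like matches were in 2 of the 6 covered windows, those of NMI (+19 to +27) and PARP14 (-40 to -32), in 12 of 40 windows of these genes not under a peak (30.0%) and in 6.79% of protein-coding windows. In PARP14 the GAS-like and the ISRE-like match together spanned 21 bases. The match of ZC3HAV1 at -104 to -96 was 195 bp outside its peak.

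Peaks were also counted at other interferon-induced genes, many of which lie in clusters. A list of 33 antiviral and antigen presentation genes (the IFIT, SAMD9, DDX60, HERC, APOL and SP100 families, the TAP and immunoproteasome genes, B2M, NLRC5, HLA class I and ERAP genes) had 23 with a TASOR KO peak (69.7%, 51.3 to 84.4), an interval that lies above that of the 9 of 47 described here (9.15 to 33.3). The difference was not tested. The 23 were IFIT1, IFIT2, IFIT3, IFIT5, SAMD9, SAMD9L, DDX60, DDX60L, HERC6, APOL1, APOL2, APOL3, SP100, SP110, SP140, SP140L, TAP1, TAP2, PSMB8, PSMB9, B2M, ERAP1 and ERAP2. The list had 0 in TASOR2 KO. It was written with earlier results of these data known, and many of its genes are neighbours, so its share is a description. Of 31 other genes of the pathway on chromosomes with a TASOR2 KO peak, among them receptors, JAK kinases, sensors and adaptors, JAK2 had a TASOR2 KO peak (3.23%, 0.0816 to 16.7), a share of 1 gene whose interval includes the background.

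**Figure D5:**
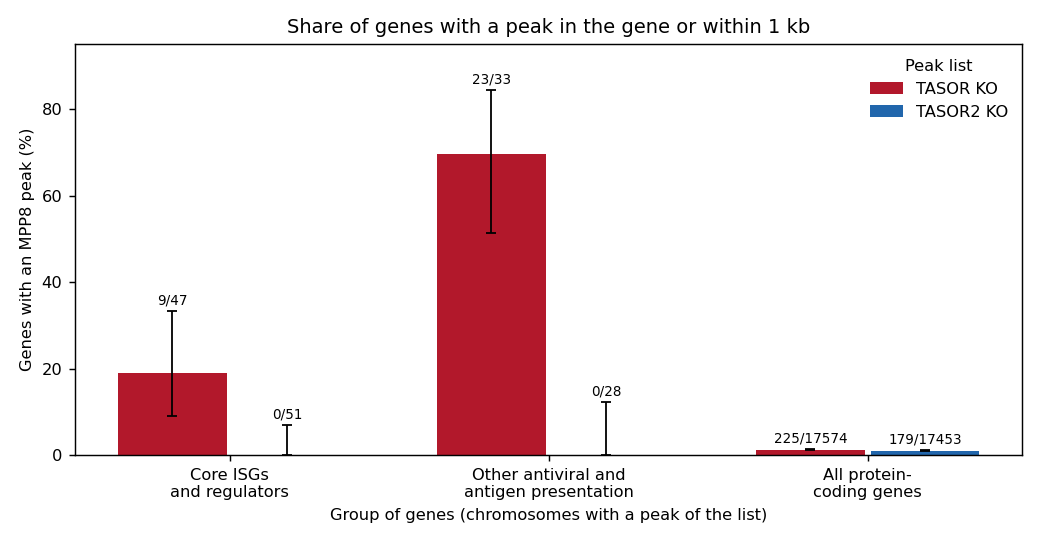
Share of genes (y axis, percent) with a TASOR KO (red) or TASOR2 KO (blue) peak in the gene or within 1 kb, with exact binomial 95% intervals and counts above the bars. In TASOR KO the core genes (9 of 47) lie above all protein-coding genes and below the clustered antiviral and antigen presentation genes (23 of 33), while both groups are at 0 in TASOR2 KO. Both groups were chosen with earlier results of these data known.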

How the data were processed

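Samples were grouped by title. The deposited peak lists have 9 columns and no header, in the order MACS2 writes for broad peaks, 1 list per sample. The authors' score, fold enrichment (a ratio), −log10 p and −log10 q describe each peak and were used within a list, with 1 exception. The common q threshold of 0.258 applies the largest q of the TASOR2 KO list to the TASOR KO list. Whether q is comparable between the lists is unknown. The deposited score was the whole part of 10 times the −log10 q in all 427 and 264 peaks. The submitters' processing notes name MACS2, deepTools, Bowtie2 2.3.5.1 and the builds hg38 and mm9. The sources used here do not give the thresholds, the control library or how the mouse spike-in entered. Peak names carry a tag of 0.5 in the TASOR KO list and 0.3 in the TASOR2 KO list, whose meaning is not stated, and the largest q (0.460 and 0.258) lies under the tag in each. The lists may differ through their calling as well as through genotype.

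Gene positions and promoter windows came from RefSeq tables of GRCh38.p14. The gene table has no strand, so starts came from the promoter table, which lists DHX58, GBP2, IFITM2, IRF2, IRF7, LAMP3, MX2, OAS2, OASL, PARP10, PML, TRIM22 and USP18 under no start. Coordinates are 1-based. Overlap meant 1 bp or more, and intervals are exact (Clopper-Pearson) at 95%. The genes, lists and roles were chosen with earlier results of these data known. The TASOR KO count of a list of other pathway genes is not reported here. The rule for named genes was every listed gene with a peak, those within 100 kb of one, and genes of the other lists with a peak where reported; the others are named by role. The overlap and motif steps were tested on simulated data. Tools were scipy 1.17.1, pandas 2.3.3, matplotlib 3.10.9 and numpy 2.4.6 in Python 3.11.15.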

Additional observations from a re-analysis of the deposited data

How the results depend on the processing

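Of 43 alternatives over 6 results, 40 stayed within 1.5 times the main value. Of the 43, 17 concern the TASOR2 KO list, where every count was 0. Among these, only the windows of 5 and 10 kb could have raised a 0. The others add no peak, gene or window, so their 0 was fixed in advance. The looser ISRE-like motifs could only keep or raise the 7 of 8 genes with a match. The 40 therefore does not measure how firm the results are. The number of genes with a TASOR KO peak fell from 9 to 4 with peaks of q 0.05 or less and to 5 with the 213 highest-scoring peaks, and the number with a start under a peak fell from 6 to 3 at that q. These settings keep fewer peaks. The count was 7 at the common q threshold of 0.258 and with 264 peaks in each list, 9 with the gene body alone and 10 with a window of 5 or 10 kb, where CMPK2 joined. Among the settings named here, the share of protein-coding genes with a peak was counted only for q of 0.05 or less (0.586%, 103 of 17574). The counts at the other settings have no background beside them. Leaving out chromosome 7 or chromosome 2, chosen after seeing the data, left 6 genes in each case. Without chromosome 7, 337 of the 427 TASOR KO peaks and 53 of the 56 genes remained, so many peaks lay on that chromosome. Each listed gene on it (TMEM140, ZC3HAV1 and PARP12) had a TASOR KO peak. Without chromosome 2, 400 peaks and 51 genes remained. The share over protein-coding genes was not counted for single chromosomes, so TMEM140, ZC3HAV1 and PARP12 have no share of their own chromosome beside them. No paired analysis was possible because there was a single library for TASOR KO and for TASOR2 KO, and none could be left out. Depth is unknown, so what weaker binding the lists miss cannot be given.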

Other observations

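Outside the interferon and antiviral lists and the ZNF genes, 45 promoter windows of 38 protein-coding genes lay under a TASOR KO peak, and 9 of them had an ISRE-like match (20%, 9.58 to 34.6), against 3.17% of all protein-coding windows. How many of these genes interferon induces was not tested. GAS-like matches were in 11 of the 40 ZNF windows under a TASOR KO peak (27.5%), against 1 of those 45 (2.22%) and 6.79% of all protein-coding windows. The 40 windows belong to 37 genes of one family and are not independent. ZNF windows not under a peak were not counted, so whether the share goes with the peaks was not tested.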
